A study of Mus musculus with 6 samples.

Results

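The Polycomb genes described here encode the subunits of Polycomb repressive complexes 1 and 2 (PRC1 and PRC2), 2 subunits of the opposing H2A deubiquitinase, and the SAM domain proteins Samd7 and Samd11 of photoreceptors. They were chosen by symbol from knowledge of the complexes, with earlier results of these data known. All 33 were found among the 49997 genes of the count tables. The sorted cells came from mice whose Rosa26-Cas9 allele gives SpCas9 to all cells, in both groups. Subretinal adeno-associated virus of the 7m8 capsid carried either an Nr2e3-targeting guide RNA (Nr2e3 guide libraries, n = 3) or a non-targeting control guide (NTC libraries, n = 3). The virus also expressed mCherry from a human GRK1 promoter, which restricts the reporter to photoreceptors. The sources differ on when mice were injected, giving both 4 weeks of age and postnatal day 21, and cells were sorted on mCherry 6 months later. Each library held about 100000 cells from the 2 injected retinas of 1 mouse. Nr2e3 guide replicate 1 was male and replicates 2 and 3 were female, whereas all NTC mice were male.

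PRC2 places methyl groups on a lysine of histone H3, and PRC1 places ubiquitin on histone H2A. Together they keep developmental genes silent, and the complexes differ between tissues in which paralog fills each position. In mouse rods, Samd7 and Samd11 join PRC1, and mice that lack Samd7 express non-rod genes such as the S-opsin gene in rods. Nr2e3 encodes a nuclear receptor of rods that represses cone genes.

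Depth was 24705561 to 33098812 gene counts in guide libraries and 32626751 to 34286248 in NTC libraries. Levels are given as CPM, the counts scaled to a common library size after TMM normalisation, in which 3 counts correspond to 0.0802 to 0.131 CPM, a limit that covers counting error only. Rod markers were abundant, with Gnat1, the rod transducin subunit, at 30316 to 34129 CPM in guide libraries and 33191 to 34871 CPM in NTC libraries. The summed level of 6 cone markers was 11229 to 15174 CPM in guide libraries and 1299 to 7003 CPM in NTC libraries, and NTC replicate 3 had the lowest sum. The higher guide sum came from Gnat2 (7612 ± 708 CPM in guide and 772 ± 512 CPM in NTC libraries), Pde6c and Pde6h, while the means of the other cone markers, Opn1sw, Opn1mw and Arr3, were lower in guide libraries (log2 fold changes -0.83, -0.66 and -0.36), and none of the 6 passed by edgeR. The summed level of 7 microglia markers was 29.1 to 150 CPM in guide libraries and 26.2 to 261 CPM in NTC libraries, with NTC replicate 3 at 261 CPM and the other NTC libraries at 26.2 and 28.4 CPM. Nr2e3 itself was at 2094, 1906 and 2244 CPM in guide libraries, against 1756, 1572 and 1507 CPM in NTC libraries. Gene-level counts are blind to small insertions and deletions, so this level is no check of the labels. In sorted bulk RNA, fewer cells of a type and less RNA per cell cannot be told apart.

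The comparison of guide with NTC libraries asks whether Polycomb subunits differ 6 months after delivery of the Nr2e3 guide. All 33 members passed the count filter, and 0 passed an adjusted p under 0.05 over all genes by edgeR's quasi-likelihood test, where 0.344% of the 17138 genes tested did. DESeq2 and limma-voom also called 0 of the 33, against 1.27% and 0.327% of their tested genes. Without NTC replicate 3, edgeR called 0 of the 33 and 0.5% of all genes. At an unadjusted p under 0.05, 2 members (6.06%) were lower, Jarid2 and Pcgf2, against 2.61% of all genes tested, and 0 were higher, against 3.08%. Guide and NTC libraries did not overlap for 4 members, or 12.1% of the 33, and for 12.1% of all genes tested. The median log2 fold change, guide over NTC, was -0.01 for the members and -0.01 for all genes tested, and the median absolute value was 0.16 for the members and 0.25 for all genes.

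**Figure D1:**
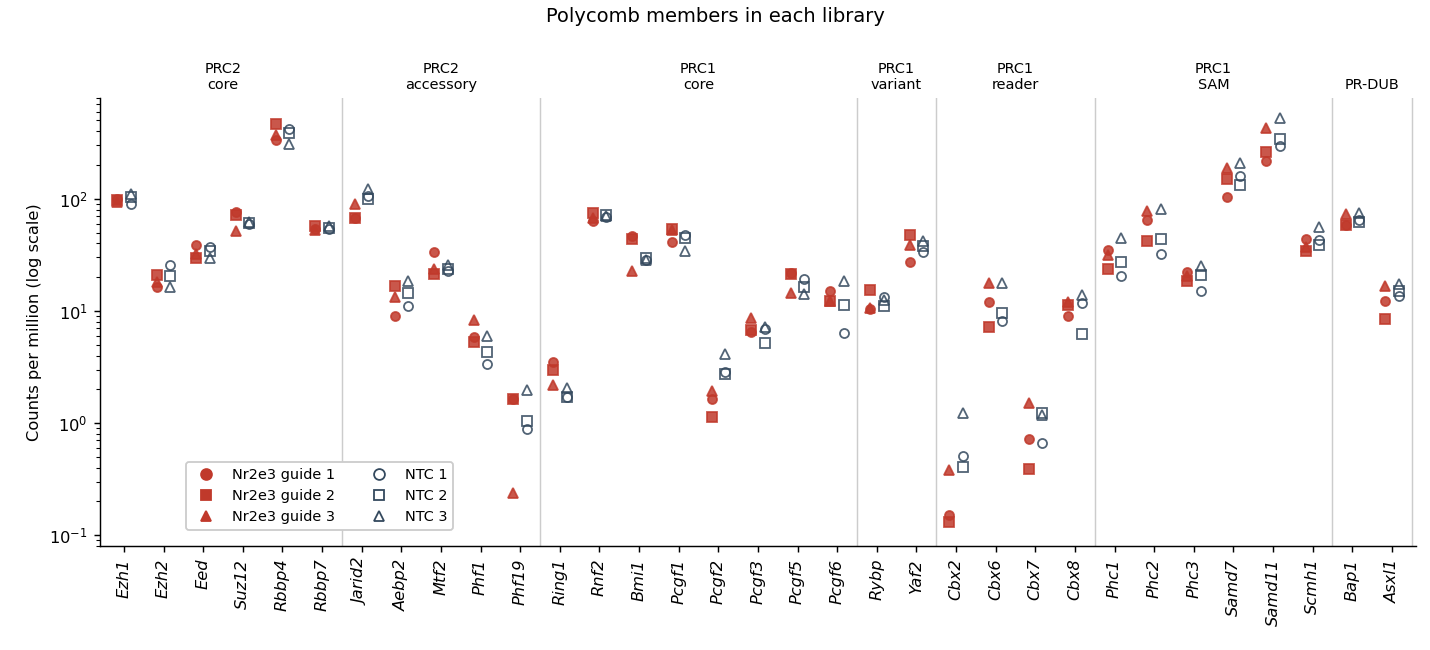
CPM on a log axis for the 33 members, ordered by complex and role. Filled red points are Nr2e3 guide libraries, open dark points are NTC libraries, and marker shape gives the replicate number; guide points lie wholly below NTC points for Jarid2, Pcgf2 and Cbx2 and wholly above for Ring1.

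For 22 of the 33 members the 95% interval of the log2 fold change lay within a 2-fold change in either direction. The log2 fold changes ran from -1.65 for Cbx2 to 0.65 for Ring1, and 25 of the 33 lay within 0.3 of 0. The widest intervals belonged to members of low count, among them Cbx2, Cbx7 and Phf19.

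**Figure D2:**
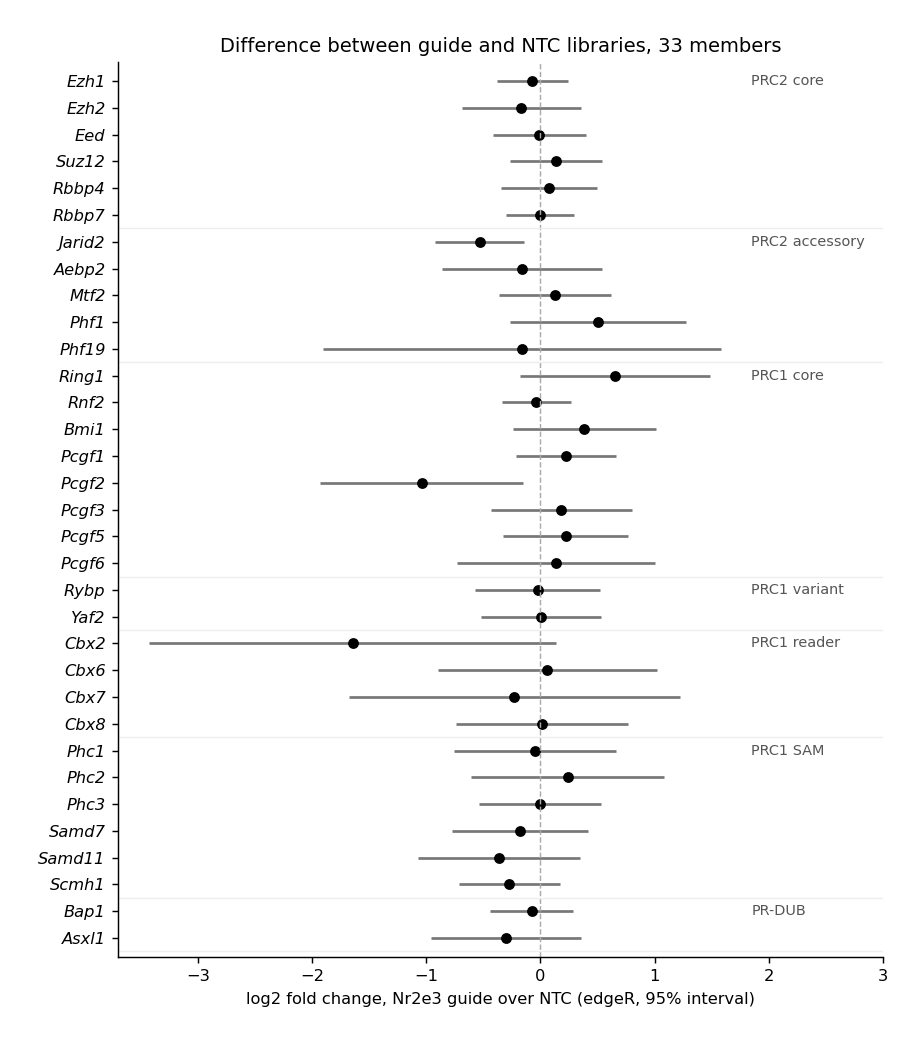
Log2 fold change of Nr2e3 guide over NTC for each of the 33 members, with its 95% interval from the edgeR fit, grouped by complex. The intervals of Jarid2 and Pcgf2 alone do not reach 0, before any adjustment for the number of genes tested.

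Samd7 and Samd11 were among the most abundant Polycomb transcripts of these cells. Per kilobase of exon, a scale that adjusts for gene length but depends on the length taken, Samd11 ranked 1 and Samd7 ranked 3 of the 33 members. Samd11 was at 83.7 ± 30.9 CPM per kilobase in guide libraries and 108 ± 33 in NTC libraries (SD, n = 3 each), and Samd7 at 37.0 ± 10.8 in guide and 41.8 ± 9.84 in NTC libraries. Within a library Samd11 was 1.91- to 2.85-fold above Samd7 on this scale, in 6 of 6 libraries (exact sign-flip test, two-sided p = 0.03125, the smallest that 6 libraries can give, adjusted p = 0.0375 over 18 pairs). Every pair was formed from the order of means in these same libraries. Any pair of 1 direction in 6 of 6 libraries gets this p, whatever the size of its ratio. The test does not measure error in the lengths used. Of the exons of Samd11, 16.7% overlap Noc2l and 11.9% overlap the antisense transcript Gm47252, both on the opposite strand. Part of its reads may therefore be shared with these genes or set aside as ambiguous.

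The promoters of both genes are shown because their transcripts occur in a restricted set of cells, unlike most other members. The sequences are RefSeq windows of GRCm38.p6 from 250 bases before to 50 after the start, read 5′ to 3′ on the gene's strand. In Samd7 (chr3:30746043-30746342, plus strand) and Samd11 (chr4:156255293-156255592, minus strand), capitals mark TAATCC on either strand, the core letters bound by homeodomain factors of the CRX and OTX2 type. The Ezh1 window (chr11:101226414-101226713, minus strand) is set beside them as a member of general use, with capitals on each CG.
Samd7: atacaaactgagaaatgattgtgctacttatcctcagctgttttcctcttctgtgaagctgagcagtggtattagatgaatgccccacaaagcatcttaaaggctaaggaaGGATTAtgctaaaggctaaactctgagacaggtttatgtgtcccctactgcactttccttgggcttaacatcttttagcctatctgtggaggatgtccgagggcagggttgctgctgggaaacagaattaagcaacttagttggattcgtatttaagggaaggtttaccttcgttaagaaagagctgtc
Samd11: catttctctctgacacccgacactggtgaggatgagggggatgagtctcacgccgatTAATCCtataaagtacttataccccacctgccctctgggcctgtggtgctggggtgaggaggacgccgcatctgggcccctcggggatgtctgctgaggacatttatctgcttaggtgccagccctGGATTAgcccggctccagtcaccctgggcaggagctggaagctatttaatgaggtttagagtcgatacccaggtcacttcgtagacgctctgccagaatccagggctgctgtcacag
Ezh1: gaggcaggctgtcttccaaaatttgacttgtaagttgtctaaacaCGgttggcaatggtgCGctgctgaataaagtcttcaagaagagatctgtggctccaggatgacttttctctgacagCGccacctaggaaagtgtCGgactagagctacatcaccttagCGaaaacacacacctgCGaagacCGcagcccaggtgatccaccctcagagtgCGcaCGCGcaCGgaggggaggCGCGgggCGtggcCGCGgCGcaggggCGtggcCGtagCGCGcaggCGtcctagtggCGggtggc

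The Samd7 window held 3 CG dinucleotides, the Samd11 window 10 and the Ezh1 window 23. Windows were found for 29 of the 33 members, and the 36 windows of the other 27 members had a median of 23.5 CG, from 0 to 54. Of these 36 windows, 7 held fewer than 10 CG. The median over 32851 promoter windows of the genome was 7. Of the genome's windows, 31.4% held no more CG than Samd7, and 58.6% no more than Samd11. TAATCC occurred at 1 place in Samd7 and at 2 places in Samd11, and in 1 of the 36 windows of the other members, that of Phc1. Over all 38 member windows, 3 (7.89%) held TAATCC, a share near the 7.06% of all windows. The letters TGCTGA, of the type bound by NRL, occurred in 18.4% of member windows and 19.5% of all windows, and AAGTCA, of the type bound by NR2E3, in 15.8% and 15.1%. Each motif was searched on both strands, and a match describes the letters only.

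Samd7 was at 103, 151 and 189 CPM in guide libraries, against 158, 133 and 211 CPM in NTC libraries (log2 fold change -0.18, SE 0.26, 95% interval -0.78 to 0.42, edgeR adjusted p = 0.995). Samd11 was at 215, 260 and 426 CPM in guide libraries, against 298, 341 and 521 CPM in NTC libraries (log2 fold change -0.36, SE 0.30, 95% interval -1.07 to 0.34, edgeR adjusted p = 0.995). The groups overlapped for both genes, and replicate 3 was the highest library in each group. With the replicate number as a block, the log2 fold change of Samd11 was -0.38 (SE 0.11, edgeR unadjusted p = 0.0172, adjusted p = 0.637). That of Samd7 was -0.20 (SE 0.18, edgeR adjusted p = 0.921). Without NTC replicate 3 the log2 fold changes were 0.02 for Samd7 and -0.09 for Samd11, and without guide replicate 1 they were 0.02 and -0.17. Without guide replicate 3 they were -0.40 for Samd7 and -0.70 for Samd11 (edgeR adjusted p = 0.676 and 0.486), and with sex as a term -0.70 and -0.84 (edgeR adjusted p = 0.680 and 0.727). Samd7 made up 30.0, 34.3 and 28.5% of the pair's summed level in guide libraries and 32.3, 26.0 and 26.6% in NTC libraries (exact permutation test, two-sided p = 0.4). With 3 libraries against 3, that test cannot give a p below 0.1.

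The other SAM domain proteins of PRC1 were less abundant. The polyhomeotic proteins, which polymerise through their SAM domains and so cluster PRC1, followed the order Phc2, Phc1, Phc3. Phc2 stood at 8.72 ± 2.55 CPM per kilobase in guide libraries and 7.39 ± 3.56 in NTC libraries (SD, n = 3 each). On this scale Phc2 was 1.37-fold above Phc1, and Phc1 was 4.84-fold above Phc3, in 6 of 6 libraries each (exact sign-flip test, adjusted p = 0.0375 for each pair). Phc2 was at 65.3, 42.0 and 77.4 CPM in guide libraries, against 32.4, 43.7 and 80.5 CPM in NTC libraries, with broad overlap (log2 fold change 0.24, SE 0.36, edgeR adjusted p = 0.995). Phc1 made up 38.5, 38.9 and 32.8% of the family in guide libraries, and 41.7, 41.0 and 39.9% in NTC libraries. The 2 groups of shares did not overlap (exact permutation p = 0.1, adjusted p = 0.55 over 22 shares). Scmh1, which joins a SAM domain to MBT repeats, averaged 38.3 ± 5.07 CPM in guide and 46.2 ± 9.11 CPM in NTC libraries (SD, n = 3 each).

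**Figure D3:**
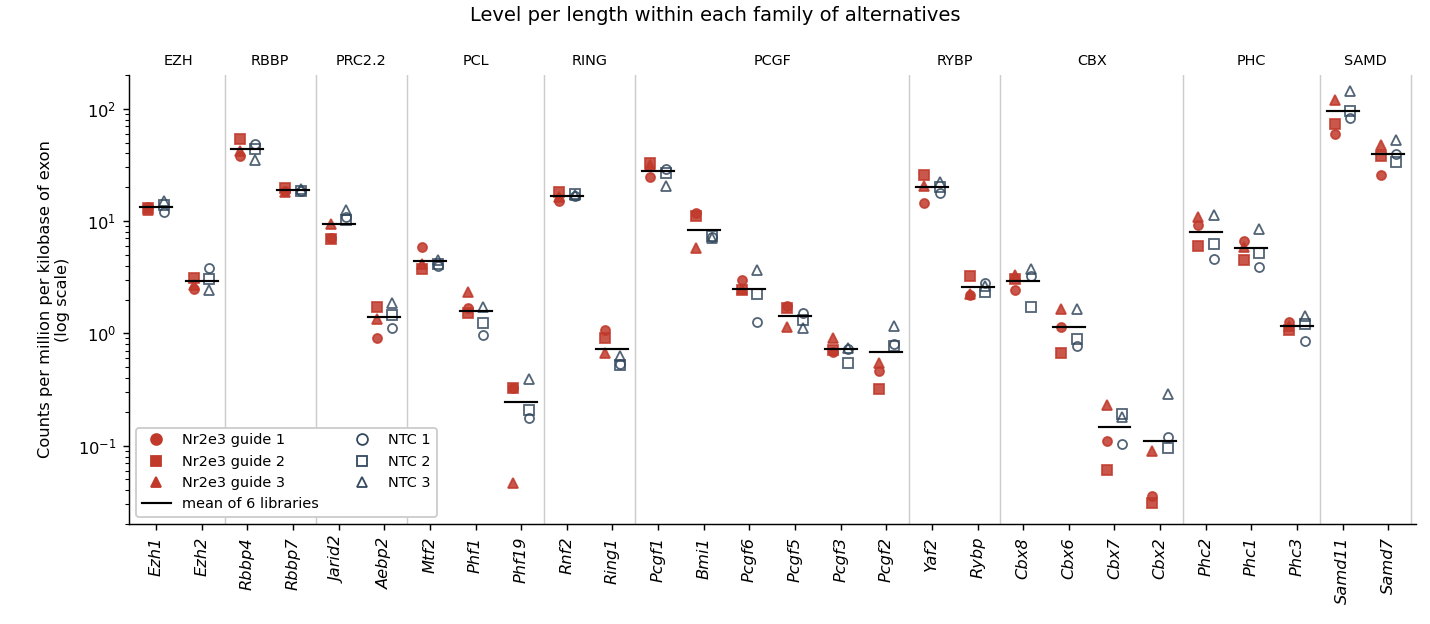
CPM per kilobase of exon, on a log axis, for the members with paralogs or alternatives, in descending order within each family (PCL, Polycomb-like; PRC2.2, Jarid2 and Aebp2). Red filled points are Nr2e3 guide libraries, open points NTC libraries and bars the mean of 6 libraries; Samd11, Rbbp4 and Samd7 have the highest means, and Cbx2 and Cbx7 the lowest.

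Among the PRC2 core subunits, the methyltransferase paralog Ezh1, known from non-dividing cells, exceeded Ezh2, known from dividing cells. Ezh1 was at 98.9, 96.9 and 93.7 CPM in guide libraries, against 89.7, 103 and 111 CPM in NTC libraries (log2 fold change -0.07, SE 0.13, 95% interval -0.38 to 0.24, edgeR adjusted p = 0.995). Ezh2 averaged 18.5 ± 2.24 CPM in guide and 20.8 ± 4.71 CPM in NTC libraries (SD, n = 3 each). Per kilobase, Ezh1 was 3.14- to 6.14-fold above Ezh2 in 6 of 6 libraries (exact sign-flip test, adjusted p = 0.0375). It made up 84.4, 80.6 and 82.3% of the pair in guide libraries and 75.9, 81.9 and 86.0% in NTC libraries, so the groups overlapped. Of the markers of dividing cells, Mki67 reached at most 0.324 CPM in any library, while Pcna was at 129 to 178 CPM in guide and 119 to 160 CPM in NTC libraries.

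None of the remaining core subunits passed the test between groups. Suz12, the scaffold of PRC2, averaged 66.4 ± 13.1 CPM in guide and 60.5 ± 0.950 CPM in NTC libraries, and Eed, which binds the methyl mark and stimulates the enzyme, at 33.6 ± 4.60 and 33.8 ± 3.95 CPM in guide and NTC libraries (SD, n = 3 each). Rbbp4 and Rbbp7 encode histone-binding proteins that also serve other chromatin complexes. Rbbp4 was at 332, 466 and 369 CPM in guide libraries, against 420, 382 and 305 CPM in NTC libraries (log2 fold change 0.08, SE 0.18, edgeR adjusted p = 0.995). Rbbp7, the only member on the X chromosome, stayed between 52.3 and 57.7 CPM in guide and 53.3 and 56.6 CPM in NTC libraries. Per kilobase, Rbbp4 was 2.28-fold above Rbbp7, in 6 of 6 libraries (exact sign-flip test, adjusted p = 0.0375).

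Jarid2 had the smallest unadjusted p of the members. It encodes a DNA-binding accessory subunit that brings PRC2 to chromatin and recognises ubiquitinated H2A. Jarid2 was at 67.9, 67.5 and 90.6 CPM in guide libraries, against 105, 100 and 122 CPM in NTC libraries, and each guide library lay below each NTC library. The log2 fold change was -0.53 (SE 0.17, 95% interval -0.92 to -0.14, unadjusted p = 0.0140), and the edgeR adjusted p over all genes was 0.567. The difference did not pass in any of the 12 alternative settings, in which the log2 fold change ran from -0.69 to -0.45 and the adjusted p was 0.283 or higher. Aebp2, the zinc finger protein found with Jarid2 in the same form of PRC2, averaged 13 ± 3.91 CPM in guide and 14.6 ± 3.66 CPM in NTC libraries (SD, n = 3 each). Per kilobase, Jarid2 was 6.81-fold above Aebp2, in 6 of 6 libraries (exact sign-flip test, adjusted p = 0.0375).

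The Polycomb-like proteins of the alternative form of PRC2, which bind CG-rich DNA, followed the order Mtf2, Phf1, Phf19. Mtf2 was at 33.6, 21.5 and 23.7 CPM in guide libraries, against 22.6, 23.7 and 25.8 CPM in NTC libraries (log2 fold change 0.13, SE 0.21, edgeR adjusted p = 0.995). Phf1 was at 5.80, 5.31 and 8.21 CPM in guide libraries, against 3.37, 4.33 and 5.93 CPM in NTC libraries, with overlap between groups (log2 fold change 0.50, SE 0.33, edgeR adjusted p = 0.995). Of the exons of Phf1, 39.3% overlap Cuta and 4.48% another transcript, both on the opposite strand, so its reads are uncertain. Phf19 was the scarcest of the 3, at 0.235 to 1.65 CPM in guide and 0.889 to 1.98 CPM in NTC libraries. Per kilobase, Mtf2 was 2.88-fold above Phf1 and Phf1 was 7.46-fold above Phf19, in 6 of 6 libraries each (exact sign-flip test, adjusted p = 0.0375 for each).

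In the catalytic core of PRC1, Rnf2 far exceeded its paralog Ring1, both of which encode E3 ubiquitin ligases of H2A. Rnf2 was at 62.8, 74.7 and 67.6 CPM in guide libraries, against 68.3, 71.3 and 70.7 CPM in NTC libraries (log2 fold change -0.04, SE 0.13, 95% interval -0.34 to 0.27, edgeR adjusted p = 0.996). Ring1 was at 3.49, 2.96 and 2.18 CPM in guide libraries, against 1.72, 1.70 and 2.06 CPM in NTC libraries, without overlap (log2 fold change 0.65, SE 0.36, 95% interval -0.18 to 1.48, edgeR adjusted p = 0.973). Per kilobase, Rnf2 was 14.2- to 32.9-fold above Ring1 in 6 of 6 libraries (exact sign-flip test, adjusted p = 0.0375). Ring1 made up 6.60, 4.8 and 3.94% of the pair in guide libraries and 3.10, 2.95 and 3.57% in NTC libraries (exact permutation p = 0.1, adjusted p = 0.55 over 22 shares).

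Each PCGF protein pairs with a RING ligase and defines a class of PRC1. Pcgf1, of a variant PRC1 with Kdm2b and Bcor, led the family, at 29.8 ± 4.30 CPM per kilobase in guide and 25.5 ± 4.31 in NTC libraries (SD, n = 3 each). It was 3.38-fold above Bmi1, one of the PCGF proteins of canonical PRC1, and Bmi1 was 3.39-fold above Pcgf6, in 6 of 6 libraries each (exact sign-flip test, adjusted p = 0.0375). Pcgf6 and Pcgf5 did not separate (higher in 5 of 6 libraries, exact adjusted p = 0.0703), nor did Pcgf3 and Pcgf2 (higher in 3 of 6, exact adjusted p = 0.562). With the mean transcript length the order of Pcgf6 and Pcgf5 turned (log2 ratio -0.80), and Pcgf3 exceeded Pcgf2 with a log2 ratio of 0.97 (exact adjusted p = 0.0352), against 0.19 with the exon union. Pcgf1 was at 40.9, 53.8 and 52.5 CPM in guide libraries, against 47.7, 44.4 and 34.1 CPM in NTC libraries (log2 fold change 0.22, SE 0.19, edgeR adjusted p = 0.995). Bmi1 was at 46.5, 43.7 and 22.7 CPM in guide libraries, against 28.6, 29.5 and 28.2 CPM in NTC libraries, so that guide replicate 3 lay below all NTC libraries and the other guide libraries above them.

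Pcgf2, the other PCGF protein of canonical PRC1, was scarce and lay lower in each guide library. It was at 1.63, 1.13 and 1.91 CPM in guide libraries, against 2.83, 2.74 and 4.09 CPM in NTC libraries, which are 43, 26 and 65 counts against 89, 95 and 153. The log2 fold change was -1.04 (SE 0.38, 95% interval -1.93 to -0.15, unadjusted p = 0.0277), and the edgeR adjusted p was 0.737. Pcgf2 made up 1.09, 0.657 and 1.27% of the family level in guide libraries and 1.98, 1.98 and 3.37% in NTC libraries (exact permutation p = 0.1, adjusted p = 0.55). The groups overlapped for the remaining PCGF genes, with Pcgf3 at 7.30 ± 1.2 and 6.44 ± 1.06 CPM, Pcgf5 at 19.2 ± 4.21 and 16.5 ± 2.53 CPM, and Pcgf6 at 13.2 ± 1.48 and 12 ± 6.05 CPM in guide and NTC libraries (SD, n = 3 each).

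**Figure D4:**
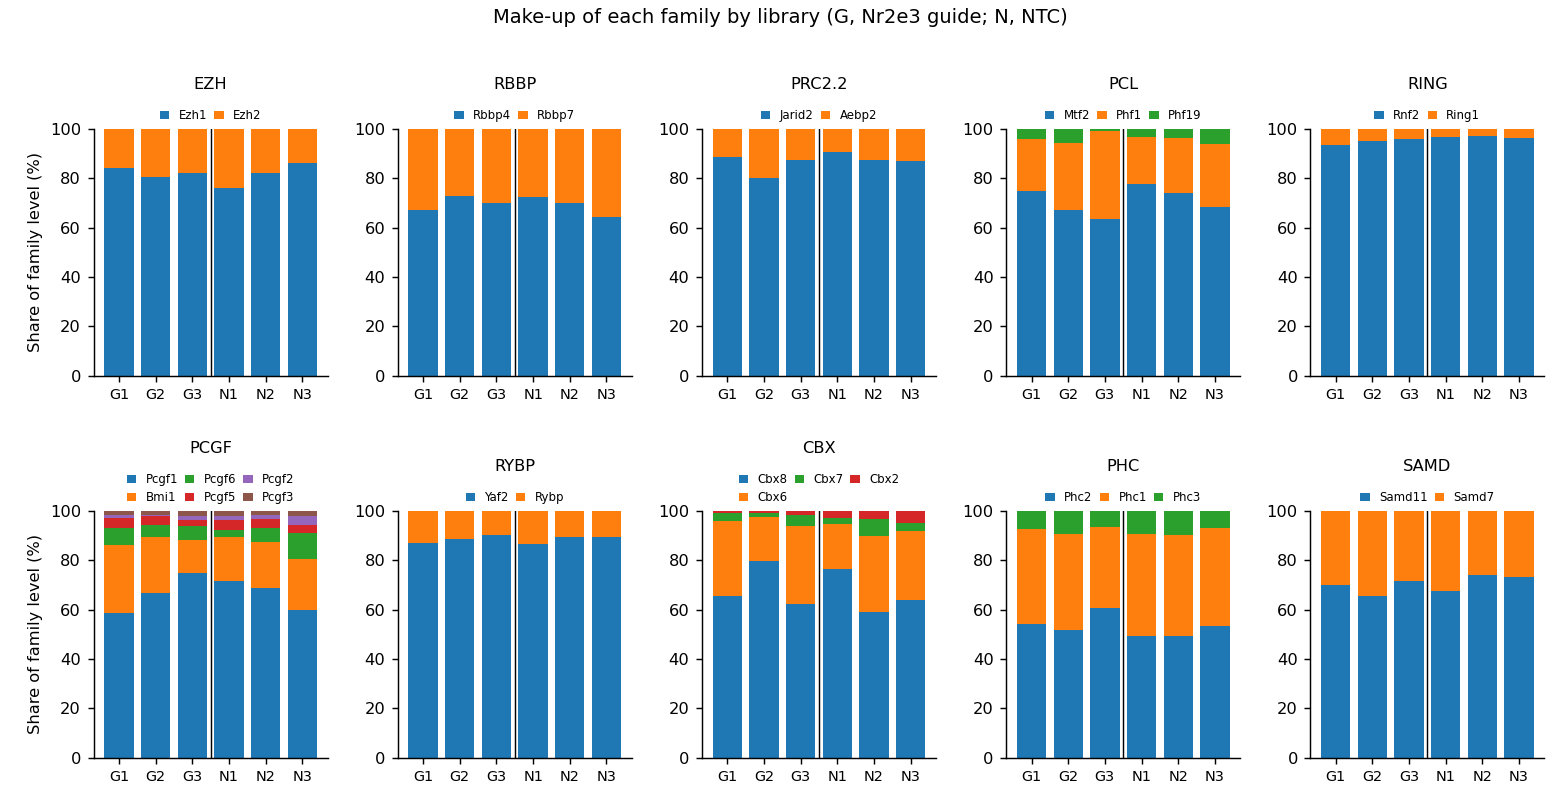
Share of each member in the summed level per kilobase of its family, in percent, for each library (G1 to G3, Nr2e3 guide; N1 to N3, NTC). The leading member was the same in all 6 libraries in every family, and Rnf2 held 93.4 to 96.1% of its pair in guide and 96.4 to 97% in NTC libraries.

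The 4 CBX members, which read the methyl mark for canonical PRC1, were low throughout. Cbx8 led, at 2.92 ± 0.434 CPM per kilobase in guide and 2.89 ± 1.06 in NTC libraries, followed by Cbx6 at 1.15 ± 0.492 and 1.11 ± 0.479 (SD, n = 3 each). Cbx8 was at 8.95, 11.2 and 12 CPM in guide libraries, against 11.8, 6.26 and 13.8 CPM in NTC libraries (log2 fold change 0.02, SE 0.32, edgeR adjusted p = 0.998). Cbx8 exceeded Cbx6 by 2.65-fold and Cbx6 exceeded Cbx7 by 8.0-fold per kilobase, in 6 of 6 libraries each (exact sign-flip test, adjusted p = 0.0375), whereas Cbx7 and Cbx2 did not separate (exact adjusted p = 0.132). With the mean transcript length in place of the exon union, Cbx8 exceeded Cbx6 in 5 of 6 libraries (log2 ratio 0.46, exact adjusted p = 0.0625), and Cbx7 exceeded Cbx2 in 6 of 6 (log2 ratio 1.70, exact adjusted p = 0.0352). Cbx6 and its neighbour Npcd share 5.31% of the Cbx6 exons on the same strand.

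Cbx2 was close to the limit of these libraries, with 4, 3 and 13 counts in guide libraries against 16, 14 and 46 counts in NTC libraries. These are 0.152, 0.131 and 0.383 CPM in guide libraries, against 0.508, 0.404 and 1.23 CPM in NTC libraries, without overlap. The log2 fold change of -1.65 had an SE of 0.76 and a 95% interval of -3.43 to 0.14 (edgeR adjusted p = 0.916). It was -1.01 without NTC replicate 3, -2.31 without guide replicate 3 and -2.21 with sex as a term (edgeR adjusted p = 0.870, 0.493 and 0.763).

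Rybp and Yaf2 encode alternative subunits of variant PRC1. Yaf2 was at 27.3, 47.9 and 38.5 CPM in guide libraries, against 33.6, 37.9 and 42.0 CPM in NTC libraries (log2 fold change 0.00, SE 0.23, 95% interval -0.52 to 0.53, edgeR adjusted p = 1.0). Rybp averaged 12.1 ± 2.85 CPM in guide and 12.3 ± 1.12 CPM in NTC libraries (SD, n = 3 each), and per kilobase Yaf2 was 7.80-fold above it in 6 of 6 libraries (exact sign-flip test, adjusted p = 0.0375). Bap1, the enzyme that removes ubiquitin from H2A, averaged 63.5 ± 8.46 CPM in guide and 67.0 ± 6.64 CPM in NTC libraries, and its partner Asxl1 at 12.5 ± 4.13 and 15.4 ± 1.94 CPM (SD, n = 3 each).

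Replicate 3 was more often the highest library of both groups, and less often the lowest, among the members than among all genes tested. In 12 of the 33 members, Samd7, Samd11, Phc2, Jarid2, Pcgf2 and Cbx2 among them, replicate 3 was the highest library in both groups, and in 2 members, Bmi1 and Pcgf5, the lowest. Over all genes tested these shares were 19.0% and 18.1%, against 36.4% and 6.06% of the members. NTC replicate 3 lay above both other NTC libraries in 24 members (72.7%, against 42.4% of all genes). It lay below both in 6 members (18.2%, against 41.9% of all genes). Among the 24, Phc2 was at 80.5 CPM in NTC replicate 3 and 32.4 and 43.7 CPM in the other NTC libraries. Outside the members, Kmt2a, an H3 methyltransferase of the opposing MLL family, was at 474 CPM in NTC replicate 3 and 176 and 221 CPM in the others. The part that the higher microglia and lower cone marker sums of NTC replicate 3 have in these values was not tested.

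Partner genes of the complexes were counted in the same fit. Of 39 partners, 34 were tested by edgeR and limma-voom, and 38 had an unadjusted p by DESeq2. By edgeR and limma-voom 0 passed, where 0.344% and 0.327% of all genes tested did. At an unadjusted p under 0.05 by edgeR, 1 was higher, against 3.08% of all genes, and 0 were lower, against 2.61%. DESeq2 called 1, against 1.27% of the 19070 genes to which it gave an adjusted p. This was Rest, a repressor of neuronal genes that was counted with the partners. The median log2 fold change of the partners was -0.03, and 0.08 without NTC replicate 3. In that edgeR fit 5 of the 34 were higher and 0 lower at an unadjusted p under 0.05, and 0 passed the adjusted threshold. Of all 17797 genes tested there, 893 were higher and 637 lower at the unadjusted threshold. Rest was at 14.1, 16.7 and 15.5 CPM in guide libraries, against 4.76, 6.87 and 9.49 CPM in NTC libraries (log2 fold change 1.13, SE 0.29, edgeR adjusted p = 0.336, DESeq2 adjusted p = 0.0358), and was chosen after its values were seen. The most abundant partners were Skp1, at 344 ± 43.6 CPM in guide and 268 ± 64.8 CPM in NTC libraries, and Max, at 145 ± 20.5 and 163 ± 35.2 CPM (SD, n = 3 each). E2f6, a partner of the Pcgf6 complex chosen after its values were seen, was at 10.1, 58.5 and 31.2 CPM in guide libraries, against 7.43, 4.70 and 220 CPM in NTC libraries. Its log2 fold change of -1.22 (SE 1.35) was 2.45 without NTC replicate 3 and -2.94 with sex as a term.

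Of 6 genes of the opposing H3 enzymes, none was called by the 3 tools (edgeR, DESeq2, limma-voom), against 0.344%, 1.27% and 0.327% of all genes tested. At an unadjusted p under 0.05 by edgeR, 1, Kdm6a, was higher, against 3.08% of all genes, and 0 were lower, against 2.61%. Without NTC replicate 3, 3 of the 6 were higher at that threshold and 0 lower, and 0 passed the adjusted threshold. Over all 17797 genes tested in that fit, 893 were higher and 637 lower at the unadjusted threshold. Median log2 fold changes of the 6 were 0.11 with all libraries and 0.93 without NTC replicate 3. Those of all genes tested were -0.01 and 0.01. Kdm6a, an X-linked demethylase of the PRC2 mark known to escape X inactivation, was at 32.8 CPM in the male guide library and 47.5 and 51.8 CPM in the female ones, against 23.5, 20.9 and 27.1 CPM in the male NTC libraries. Its log2 fold change was 0.89 (SE 0.22, edgeR adjusted p = 0.296) and 0.46 (SE 0.23) with sex as a term. That term rests on guide replicate 1 against the male NTC libraries, and the part that sex has in the difference was not tested. The male guide library also lay above each NTC library. Kdm6a was named after its values were seen. The most abundant of the 6 were Kmt2a, at 179 ± 29.6 CPM in guide and 290 ± 161 CPM in NTC libraries, and Kmt2c, at 151 ± 21.7 and 154 ± 20.2 CPM (SD, n = 3 each).

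Hox genes, the standard targets of Polycomb silencing, were almost without counts. None of the 39 passed the count filter, and 14 had a count in any library. They held 51, 6 and 0 counts in guide libraries and 0, 0 and 2 counts in NTC libraries. Guide replicate 1 held 51 of these counts, and it also had a count in 53.2% of all genes in the tables, against 40.6 and 45.5% in the other guide libraries and 46.7 to 47.9% in NTC libraries.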

How the data were processed

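The library kit was SMARTer Ultra Low, per the labels' protocols, and it leaves strand unmarked. The authors deposited raw read counts per gene; cutadapt, STAR 2.7.3a, HTSeq 0.12.4, DESeq2 1.42.0 and mm10 are named in the submitters' processing notes. For annotation and strand setting: not given in the sources used here. Reads assigned to no gene, 21.6 to 23.7% of each library, were left out. Counts were normalised by TMM, filtered with edgeR's filterByExpr and tested by edgeR's quasi-likelihood test (edgeR 4.0.16, R 4.3.3) on all genes, with Benjamini-Hochberg adjustment. Alternatives were DESeq2 size factors, no filter, DESeq2's Wald test, limma-voom (limma 3.58.1), a replicate block, sex as a term and leaving out each library. The main edgeR fit alone was run on simulated counts, which were drawn from its own means and dispersions. Each library is 1 animal. Exon lengths came from GENCODE M21; mean transcript length was an alternative, and longest transcript length was added after seeing the data. Paralogs were compared within libraries by exact sign-flip tests, and family shares between groups by exact permutation tests, all two-sided. The paralog pairs were neighbours in the order found in these same libraries. The genes described in full were Samd7, Samd11, any member past the threshold, the 5 members of smallest p and the member of highest level per kilobase in each family; in other lists, called genes or else the 2 most abundant. The members and lists were chosen with earlier results of these data known.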

Additional observations from a re-analysis of the deposited data

How the results depend on the processing

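No member passed an adjusted p under 0.05 in any of the 12 alternatives. Of 180 log2 fold changes of the 15 genes described in full, 159 kept their direction and 21 turned, all in 8 genes. With sex as a term, which rests on guide replicate 1 against the male NTC libraries, they were -0.151 for Rbbp4, -0.0409 for Pcgf1, -0.246 for Cbx8 and -0.4705 for Yaf2. Samd7 (-0.70), Samd11 (-0.84) and Cbx2 (-2.21) moved further below 0 with that term. With 1 library left out, values ran from -0.399 to 0.0244 for Samd7, which turned without guide replicate 1 and without NTC replicate 3 (0.0167). They ran from -0.0765 (without guide replicate 2) to 0.1781 for Rbbp4, which was -0.0459 without NTC replicate 3. They ran from -0.0886 (without guide replicate 1) to 0.2499 for Mtf2, from -0.1071 to 0.021 (without guide replicate 1) for Rnf2, and from -0.0114 (without NTC replicate 1) to 0.6901 for Phc2. Cbx8 ran from -0.2545 (without NTC replicate 2) to 0.2447, with -0.0186 and -0.0796 without guide replicates 2 and 3. Yaf2 ran from -0.2045 (without guide replicate 2) to 0.1902, with -0.0117 without guide replicate 3 and -0.077 without NTC replicate 1. It was also -0.0117 with no filter, -0.0001 by DESeq2, -0.0382 by limma-voom and -0.0289 with the replicate block. E2f6 ran from -1.9054 to 2.4544 (without NTC replicate 3), and was 0.3236 by limma-voom, 0.3931 with the replicate block and -2.94 with sex as a term. The cause was not tested. With mean transcript lengths the log2 ratio of Pcgf6 to Pcgf5 was -0.8033, and with longest transcripts, a choice made after seeing the data, that of Pcgf3 to Pcgf2 was -0.0028. With mean transcript lengths the ratio of Cbx8 to Cbx6 no longer passed. Ratios that kept their direction also changed in size with these lengths. Yaf2 was 3.24-fold above Rybp and Phc1 2.51-fold above Phc3, against 7.80 and 4.84 with the exon union. Phc2 was 2.43-fold above Phc1 and Mtf2 5.65-fold above Phf1, against 1.37 and 2.88.

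Over all genes edgeR called 54 higher and 5 lower. These counts were 130 and 25 with no filter, 185 and 57 by DESeq2, 6 and 0 with sex as a term, and 14 to 80 and 0 to 9 with 1 library left out, and limma-voom called 2 lower. DESeq2 called 1 gene of the partner lists, and edgeR 0. Over all genes, the deviations of same-numbered libraries from their group means had correlations of 0.136, -0.144 and 0.0441. Those of differently numbered libraries ran from -0.186 to 0.145. With 3 libraries in each group, these values cannot settle whether replicate numbers mark pairs. With the replicate block 31 genes were higher and 1 lower, and 0 members were called. Cbx2, Cbx7, Phf19 and Pcgf2 are limited by low counts.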
